A study of Homo sapiens with 12 samples.

Results

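The genes described here are a list of 40 that encode lysosomal enzymes and lysosomal membrane proteins, chosen by their known function. Of these, 37 were measured, among 11963 genes in all. GLB1, AGA and ACP5 were not analysed here because no probe set named for one of them alone was used. Transcript levels were measured on 12 Affymetrix arrays of total RNA from the human acute myeloid leukaemia lines U937 and MV4-11, and the series description asks how depletion of the chromatin remodeler CHD4 affects them. The 4 groups of 3 arrays were U937 with an shRNA against CHD4, U937 with a scrambled shRNA, MV4-11 with an shRNA against CHD4, and MV4-11 with a scrambled shRNA. All cells, controls included, carried a lentiviral pRRL.H1.shRNA vector expressing GFP. The sources used here do not give the number of hairpins behind the CHD4 groups, the time after transduction or any sorting. Both lines are established cultures and not primary blasts.

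Lysosomes are acidic organelles in which proteins, glycans, lipids and glycosaminoglycans are broken down by soluble hydrolases. Most hydrolases are made in the endoplasmic reticulum, tagged with mannose 6-phosphate and carried to the lysosome by receptors, and a proton pump keeps the lumen acidic. Monocytes and macrophages are rich in lysosomes, which digest what these cells take up, and the transcription factors TFEB, TFE3 and MITF bind E-box elements in many lysosomal promoters. Values below are RMA values on the log2 scale, on which a difference of 1 is a doubling of signal, and a log2 change is CHD4 shRNA minus scrambled with its standard error (SE). A gene was past the threshold when its adjusted p from limma, a linear model fitted to every gene, was under 0.05 after Benjamini-Hochberg adjustment over 11963 genes. Unless another fit is named, calls are from the main fit, which ignored replicate number.

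The hairpin's target is spelled CHD4 in the series description but CDH4, the name of another gene, in the sample titles and the treatment protocol. CHD4 is used here because its own signal was lower in those groups. CHD4 read 8.23, 8.13 and 8.45 in U937 CHD4 shRNA arrays, against 10.31, 10.38 and 10.71 in U937 scrambled arrays. In MV4-11 it read 8.79, 8.85 and 8.39 in CHD4 shRNA arrays, against 10.65, 10.69 and 10.68 in scrambled arrays. CHD4 was 4.58-fold lower in U937 and 3.99-fold lower in MV4-11 with its shRNA (limma adjusted p 8.78e-06 and 1.35e-05). FLT3, which MV4-11 is known to carry in mutated form, was 3.35 higher on the log2 scale in MV4-11 scrambled arrays than in U937 scrambled arrays (SE 0.32, limma adjusted p 7.22e-05). Of 5 measured markers of myeloid identity, none passed the threshold in either line with CHD4 shRNA. In the mean change over both lines PTPRC and CEBPA passed, both higher, which is 40% of the 5, beside 18.8% of all genes. In U937 the replicate 3 arrays of both groups stood apart for some lysosomal genes, FUCA1 most, and in MV4-11 CHD4 shRNA replicate 2 was the most extreme array for several others.

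With CHD4 shRNA the lysosomal genes did not move as a block. In U937, IDS rose and CTSD fell, and the other 35 did not pass the threshold. In MV4-11, IDS, CTSA, NEU1 and CTSZ rose, CTSD fell, and the other 32 did not pass. This main fit ignored the replicate numbers, which were taken to pair the MV4-11 arrays. With replicate number as a block in MV4-11 alone, 10 of 37 passed there, 5 higher and 5 lower. That is 27.0%, beside 15.9% of all genes. In the main fit the count was 2 of 37 in U937, or 5.41%, beside 6.36% of all genes. It was 5 of 37 in MV4-11, or 13.5%, beside 9.42% of all genes. Of all genes, 2.67% were called higher and 3.69% lower in U937, and 4.73% higher and 4.69% lower in MV4-11. The 37 genes were brighter than most, with a median level of 10.36 against 7.50 over all genes. Without the dimmest 25% of genes, 5.71% of the lysosomal genes left were called in U937, beside 8.83% of all genes left. In MV4-11 these shares were 17.1% and 13.5%. The median log2 change of the 37 genes was 0.07 in U937 and 0.03 in MV4-11, against 0.00 and -0.03 over all genes. Of the 37, 22 were above 0 in U937 and 20 in MV4-11. The U937 count was 1, CTSD alone, or 2.7%, when any of 4 arrays was left out. These were scrambled replicates 1 and 2 and CHD4 shRNA replicates 2 and 3. The share of all genes called in U937 was then 2.74%, 3.48%, 2.56% and 3.03%. The MV4-11 count was 3, or 8.11%, without CHD4 shRNA replicate 1, scrambled replicate 2 or scrambled replicate 3. Beside it, 3.53%, 5.41% and 5.01% of all genes were called. It was 12, or 32.4%, without CHD4 shRNA replicate 3, beside 16.4% of all genes. Without that array CTSA, IDS, NEU1, CTSZ and CTSD were called along with GAA (-0.45), GUSB (-0.35), MANBA (-0.84), ASAH1 (-0.62), GM2A (-0.79), NPC2 (-0.59) and MCOLN1 (0.90), with limma adjusted p of these 7 between 0.00837 and 0.0488. GAA was also called without U937 CHD4 shRNA replicate 3 (limma adjusted p 0.0457), and CD63 in MV4-11 without U937 scrambled replicate 3 (0.00966), arrays that enter these MV4-11 tests through the shared spread.

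**Figure D1:**
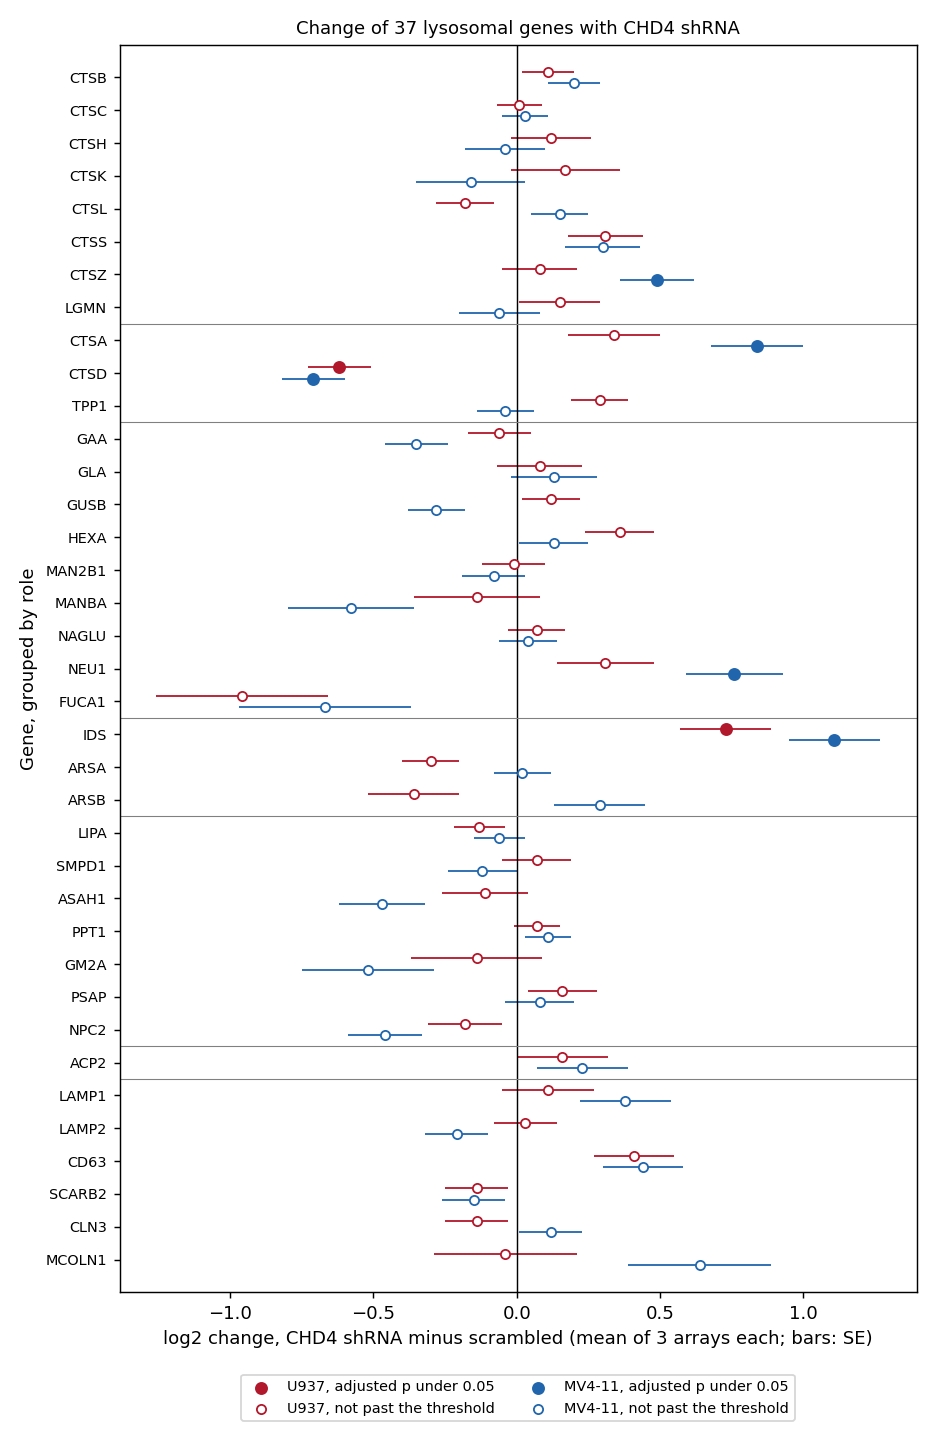
Log2 change of each measured lysosomal gene, CHD4 shRNA minus scrambled, in U937 and MV4-11, with bars for the SE and filled points for limma adjusted p under 0.05. IDS lies farthest above 0 in both lines, CTSD is the only gene filled below 0, and most points lie within 0.5 of 0.

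IDS encodes iduronate 2-sulfatase, which removes sulfate from dermatan sulfate and heparan sulfate and is deficient in Hunter syndrome. It read 9.23, 9.55 and 9.82 in U937 CHD4 shRNA arrays, against 8.72, 8.80 and 8.89 in U937 scrambled arrays. In MV4-11 it read 9.62, 9.75 and 9.21 in CHD4 shRNA arrays, against 8.44, 8.29 and 8.52 in scrambled arrays. Every CHD4 shRNA array was above every scrambled array of its line. IDS rose by 0.73 in U937 (SE 0.16, 1.66-fold, limma adjusted p 0.0166) and by 1.11 in MV4-11 (SE 0.16, 2.16-fold, limma adjusted p 0.00169). The U937 call was lost without scrambled replicate 1 or 2 or CHD4 shRNA replicate 2 or 3, with limma adjusted p between 0.0573 and 0.0745.

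The gene was covered by 9 probe sets, and in a limma fit of all probe sets 2 of 9 passed the threshold in U937 and 5 of 9 in MV4-11. Their log2 changes ran between -0.07 and 0.73 in U937 and between -0.06 and 1.43 in MV4-11. The probe set that stands for IDS here has the suffix that Affymetrix gives to sets whose probes can match other transcripts, and the RefSeq gene table lists a pseudogene of IDS, IDSP1, on the same chromosome. Of 3 sets without such a suffix, 1 gave 0.72 in U937 (SE 0.24, limma adjusted p 0.121) and 1.11 in MV4-11 (SE 0.24, limma adjusted p 0.0151). The other 2 gave 0.17 and 0.25 in U937 and 0.08 and -0.06 in MV4-11, and neither passed. The sets of IDS therefore differed in whether they passed.

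CTSD encodes cathepsin D, the main aspartic protease of the lysosome. It read 8.95, 8.83 and 8.85 in U937 CHD4 shRNA arrays, against 9.37, 9.68 and 9.44 in U937 scrambled arrays. The MV4-11 values were 8.76, 8.63 and 8.92 in CHD4 shRNA arrays, against 9.44, 9.40 and 9.61 in scrambled arrays. All 6 CHD4 shRNA arrays were below all 6 scrambled arrays. CTSD fell by 0.62 in U937 (SE 0.11, 1.54-fold lower, limma adjusted p 0.00617) and by 0.71 in MV4-11 (SE 0.11, 1.64-fold lower, limma adjusted p 0.00257). It stayed past the threshold in both lines under each of the 22 alternatives computed for it.

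CTSA encodes cathepsin A, a serine carboxypeptidase that is also called protective protein because it holds the sialidase NEU1 and beta-galactosidase in a stable complex. It read 10.74, 10.63 and 10.35 in MV4-11 CHD4 shRNA arrays, against 10.03, 9.71 and 9.46 in MV4-11 scrambled arrays. In U937 it read 10.49, 10.67 and 11.02 in CHD4 shRNA arrays, against 10.30, 10.36 and 10.51 in scrambled arrays. The groups were apart in MV4-11 and overlapped in U937. CTSA rose by 0.84 in MV4-11 (SE 0.16, 1.79-fold, limma adjusted p 0.0079), and its change in U937 was 0.34 (SE 0.16, limma adjusted p 0.294). The MV4-11 call held under all 22 alternatives.

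NEU1 encodes neuraminidase 1, which removes sialic acid from glycoproteins and glycolipids. It read 11.38, 11.20 and 11.18 in MV4-11 CHD4 shRNA arrays, against 10.83, 10.45 and 10.20 in MV4-11 scrambled arrays. In U937 it read 10.52, 10.63 and 10.99 in CHD4 shRNA arrays, against 10.59, 10.47 and 10.16 in scrambled arrays. As for its partner CTSA, the groups were apart in MV4-11 and overlapped in U937. NEU1 rose by 0.76 in MV4-11 (SE 0.17, 1.69-fold, limma adjusted p 0.0154), and its change in U937 was 0.31 (SE 0.17, limma adjusted p 0.366). The MV4-11 call was lost without CHD4 shRNA replicate 1 (limma adjusted p 0.0738), scrambled replicate 2 (0.0522) or scrambled replicate 3 (0.0659). GLB1, the beta-galactosidase of the complex, was not analysed here.

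Promoter windows of CTSD, CTSA, NEU1 and IDS are shown because the first 3 hold the E-box core CACGTG, the centre of the element that TFEB and its relatives bind, and IDS, with the largest rise, does not. Each window runs from 250 bases before to 50 after the annotated start and comes from RefSeq on GRCh38.p14, at chr11:1763878-1764177 (minus strand) for CTSD, chr20:45891085-45891384 (plus strand) for CTSA, chr6:31862772-31863071 (minus strand) for NEU1 and chrX:149505257-149505556 (minus strand) for IDS. Capitals mark CACGTG and, where present, the longer forms TCACGTGA and GTCACGTG that contain it, searched on both strands.
CTSD: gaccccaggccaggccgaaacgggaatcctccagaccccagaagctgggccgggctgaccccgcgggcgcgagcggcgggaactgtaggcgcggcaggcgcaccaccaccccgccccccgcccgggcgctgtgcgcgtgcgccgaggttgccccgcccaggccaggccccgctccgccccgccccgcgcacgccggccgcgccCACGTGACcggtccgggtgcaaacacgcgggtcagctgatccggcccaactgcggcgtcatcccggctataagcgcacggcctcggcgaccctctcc
CTSA: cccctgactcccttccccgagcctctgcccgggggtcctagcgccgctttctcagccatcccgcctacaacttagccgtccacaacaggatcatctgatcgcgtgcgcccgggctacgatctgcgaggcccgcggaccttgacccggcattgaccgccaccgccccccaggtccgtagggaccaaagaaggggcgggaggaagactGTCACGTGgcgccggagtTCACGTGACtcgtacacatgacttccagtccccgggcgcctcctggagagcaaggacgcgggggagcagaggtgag
NEU1: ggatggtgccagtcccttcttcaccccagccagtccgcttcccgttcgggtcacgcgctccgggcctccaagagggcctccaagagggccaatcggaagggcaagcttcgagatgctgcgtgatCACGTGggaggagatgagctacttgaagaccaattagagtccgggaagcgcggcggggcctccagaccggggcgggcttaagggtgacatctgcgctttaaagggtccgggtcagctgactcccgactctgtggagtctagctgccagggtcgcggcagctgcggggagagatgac
IDS: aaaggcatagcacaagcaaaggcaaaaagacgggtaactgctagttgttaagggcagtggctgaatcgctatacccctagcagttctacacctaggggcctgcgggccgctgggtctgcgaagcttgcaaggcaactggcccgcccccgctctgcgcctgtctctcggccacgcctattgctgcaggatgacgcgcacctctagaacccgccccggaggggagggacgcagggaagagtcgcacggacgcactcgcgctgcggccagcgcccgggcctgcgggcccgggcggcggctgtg
The core began 47 bases before the start of CTSD, 42 and 25 bases before that of CTSA, and 126 bases before that of NEU1. None was found in the windows of IDS and CTSZ. RefSeq windows were matched for 29 of the 40 listed genes, 45 windows in all. CACGTG was present in 11 of these 45 windows, or 24.4%, against 7.26% of 35116 windows of all genes. TCACGTGA was in 13.3% of the lysosomal windows, against 0.98% of all windows, and GTCACGTG in 17.8%, against 2.40%. The genes with the core were ACP5, ARSB, CD63, CLN3, CTSA, CTSD, GAA, LAMP1, MCOLN1 and NEU1. Among them with CHD4 shRNA, CTSA and NEU1 rose and CTSD fell in MV4-11, so genes with the core were called in both directions. A match of letters is a description of these windows and not evidence of binding.

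The cysteine proteases form the largest protease group, with 8 genes measured. None passed the threshold in U937, and CTSZ alone rose in MV4-11. CTSZ encodes cathepsin Z, a carboxypeptidase. It read 9.48, 9.90 and 9.38 in MV4-11 CHD4 shRNA arrays, against 9.01, 9.22 and 9.06 in MV4-11 scrambled arrays. In U937 it read 9.50, 9.57 and 9.72 in CHD4 shRNA arrays, against 9.52, 9.65 and 9.37 in scrambled arrays. The groups did not overlap in MV4-11 and overlapped in U937. Its log2 change was 0.49 in MV4-11 (SE 0.13, 1.40-fold, limma adjusted p 0.0374) and 0.08 in U937 (SE 0.13, limma adjusted p 0.827). The call was lost in 9 of 22 alternatives. These were the mean of its probe sets (change 0.16, limma adjusted p 0.255), a fit of the MV4-11 arrays alone (0.113), and the fits without U937 scrambled replicate 1, U937 CHD4 shRNA replicate 2, any one MV4-11 scrambled array, or MV4-11 CHD4 shRNA replicate 1 or 2 (0.054 to 0.126). Its other probe set gave -0.17 in MV4-11 (SE 0.12, limma adjusted p 0.428).

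CTSB encodes cathepsin B, an abundant endopeptidase and exopeptidase of macrophages, and its 4 probe sets disagreed. The set used here gave 0.11 in U937 and 0.20 in MV4-11 (SE 0.09 each), and neither passed the threshold. A second set gave 0.18 and 0.17 and did not pass. In the fit of all probe sets the other pair passed in both lines, at 0.55 and 0.40 in U937 (limma adjusted p 0.012 and 0.0417) and at 0.51 and 0.44 in MV4-11 (limma adjusted p 0.014 and 0.02). All 4 were above 0 in both lines. CTSS, the cathepsin that trims the invariant chain of MHC class II, read 9.94, 10.09 and 10.47 in U937 CHD4 shRNA arrays, against 9.83, 9.93 and 9.80 in scrambled arrays. The MV4-11 values were 10.11, 10.20 and 10.28 in CHD4 shRNA arrays, against 9.74, 9.94 and 10.00 in scrambled arrays. In each line its groups did not overlap, and its changes of 0.31 and 0.30 did not pass the threshold in either line alone. CTSC, the dipeptidyl peptidase that activates granule serine proteases, gave 0.01 in U937 and 0.03 in MV4-11 (SE 0.08 each). CTSH, an aminopeptidase, gave 0.12 and -0.04, and the collagen-degrading CTSK gave 0.17 and -0.16. CTSL, an endopeptidase, gave -0.18 and 0.15, and the asparaginyl endopeptidase LGMN gave 0.15 and -0.06. CTSL and LGMN were among the dimmest 25% of genes on these arrays, where background compresses changes. TPP1, a serine protease that removes tripeptides, gave 0.29 in U937 (limma adjusted p 0.113) and -0.04 in MV4-11 (limma adjusted p 0.879). Its 4 probe sets disagreed, with changes between -0.16 and 0.37 in U937, where none passed, and between -0.13 and 0.56 in MV4-11, where 1 passed (limma adjusted p 0.0354 in the fit of all probe sets).

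**Figure D2:**
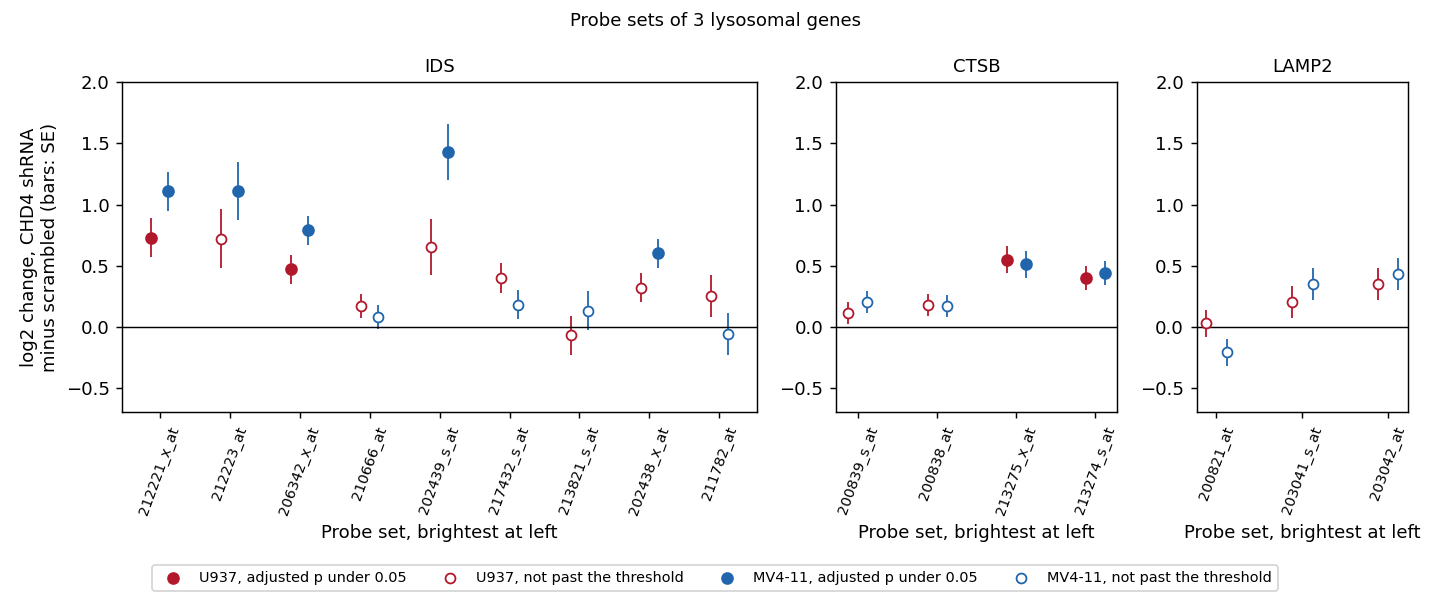
Log2 change, CHD4 shRNA minus scrambled with SE bars, of each probe set of IDS, CTSB and LAMP2 in U937 and MV4-11, with filled points for limma adjusted p under 0.05. For IDS 5 of 9 sets pass in MV4-11, for CTSB 2 of 4 pass in both lines, and for LAMP2 none of 3 passes.

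Of 11 glycosidases, 9 were measured. None passed the threshold in U937, and NEU1 alone passed in MV4-11. FUCA1, which removes fucose from glycoproteins, had the lowest change of the 37 genes in U937 without passing. It read 10.99, 10.91 and 10.14 in U937 CHD4 shRNA arrays, against 12.03, 12.08 and 10.82 in U937 scrambled arrays. In MV4-11 it read 10.49, 10.54 and 10.98 in CHD4 shRNA arrays, against 11.18, 11.31 and 11.53 in scrambled arrays. Replicate 3 was the lowest array of both U937 groups, so that 2 U937 CHD4 shRNA arrays lay above 1 scrambled array, and the MV4-11 groups did not overlap. The change was -0.96 in U937 (SE 0.30, limma adjusted p 0.0865) and -0.67 in MV4-11 (SE 0.30, limma adjusted p 0.197). Without U937 scrambled replicate 3 the U937 change was -1.38 (limma adjusted p 0.0114).

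The other glycosidases gave changes between -0.14 and 0.36 in U937 and between -0.58 and 0.13 in MV4-11. HEXA, the alpha subunit of beta-hexosaminidase, gave 0.36 in U937 (limma adjusted p 0.0991) and 0.13 in MV4-11. Its other probe set gave 0.42 in U937 without passing and 0.47 in MV4-11, where it passed (SE 0.13, limma adjusted p 0.0419). With its probe sets averaged HEXA passed in U937 (0.39, limma adjusted p 0.033). MANBA, beta-mannosidase, read between 8.68 and 9.61 in MV4-11 CHD4 shRNA arrays, against 9.47, 9.53 and 10.03 in scrambled arrays, a change of -0.58 (SE 0.22, limma adjusted p 0.126, or 0.0223 with replicate number as a block in MV4-11). GAA, the acid alpha-glucosidase that degrades glycogen, gave -0.35 in MV4-11 (limma adjusted p 0.0761, or 0.0454 with that block) and -0.06 in U937. GUSB, beta-glucuronidase, gave -0.28 in MV4-11 and 0.12 in U937. GLA, MAN2B1 and NAGLU, which remove alpha-galactose, alpha-mannose and N-acetylglucosamine, lay between -0.08 and 0.13 in both lines. Of the other sulfatases, ARSA, which acts on sulfatide, gave -0.30 in U937 (limma adjusted p 0.11) and 0.02 in MV4-11. ARSB, which acts on dermatan and chondroitin sulfate, gave -0.36 and 0.29 without passing in either line.

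None of the 7 genes of lipid handling passed the threshold in either line in the main fit. With a replicate block in MV4-11 alone NPC2 (limma adjusted p 0.0128) and ASAH1 (0.0102) passed there. Without a block NPC2 passed there with the dim filter (limma adjusted p 0.0426), trend and robust fitting (0.0345) and averaged probe sets (0.0487). With array weights NPC2, ASAH1 and GM2A passed there (limma adjusted p 0.00161, 0.00505 and 0.00479). That fit called 20 of the 37 lysosomal genes in MV4-11, or 54.1%, beside 36.5% of all genes. It gave MV4-11 CHD4 shRNA replicate 1 a weight of 20.1, against 0.391 and 0.356 for replicates 2 and 3. Changes of the 7 genes lay between -0.18 and 0.16 in U937 and between -0.52 and 0.11 in MV4-11. NPC2, which carries cholesterol out of the lysosome, read 12.09, 11.77 and 12.34 in MV4-11 CHD4 shRNA arrays, against 12.42, 12.47 and 12.68 in scrambled arrays. Its groups did not overlap in MV4-11, and the change of -0.46 missed the threshold there (SE 0.13, limma adjusted p 0.0515). ASAH1, acid ceramidase, gave -0.47 in MV4-11 (SE 0.15, limma adjusted p 0.0701) and -0.11 in U937. One other ASAH1 probe set passed in MV4-11 at -0.93 (SE 0.24, limma adjusted p 0.0311 in the fit of all probe sets). GM2A, the activator that presents ganglioside GM2 to hexosaminidase, read 10.38, 9.93 and 10.95 in MV4-11 CHD4 shRNA arrays, against 10.87, 10.91 and 11.05 in scrambled arrays (change -0.52, SE 0.23). Of its 6 probe sets, all below 0 in MV4-11, 1 passed at -0.45 (limma adjusted p 0.0472 in the fit of all probe sets). CHD4 shRNA replicate 2 was the lowest MV4-11 array for MANBA, NPC2 and GM2A. LIPA, SMPD1, PPT1 and PSAP, which encode acid lipase, acid sphingomyelinase, a palmitoyl-protein thioesterase and the saposin precursor, lay between -0.13 and 0.16 in both lines. ACP2, an acid phosphatase, gave 0.16 in U937 and 0.23 in MV4-11 without passing.

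The 6 membrane proteins had no call in either line in the main fit. CD63, a tetraspanin of late endosomes and lysosomes, read 12.84, 12.96 and 12.93 in U937 CHD4 shRNA arrays, against 12.69, 12.70 and 12.11 in scrambled arrays. The MV4-11 values were 13.06, 13.18 and 13.00 in CHD4 shRNA arrays, against 12.65, 12.68 and 12.59 in scrambled arrays. Its groups did not overlap in either line, and its changes were 0.41 in U937 (SE 0.14, limma adjusted p 0.105) and 0.44 in MV4-11 (SE 0.14, limma adjusted p 0.0627). CD63 was called in MV4-11 in 5 of 22 alternatives, among them a fit of the MV4-11 arrays alone (limma adjusted p 0.0421). LAMP1, a main glycoprotein of the lysosomal membrane, gave 0.11 and 0.38 (limma adjusted p 0.811 and 0.165). Its relative LAMP2 gave 0.03 and -0.21 on the set used here and 0.20 to 0.43 on 2 other sets, and none of the 3 passed. SCARB2, the receptor that carries beta-glucocerebrosidase to the lysosome, gave -0.14 and -0.15, and CLN3 gave -0.14 and 0.12.

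MCOLN1, the lysosomal calcium channel TRPML1, read 6.71, 7.46 and 6.31 in MV4-11 CHD4 shRNA arrays, against 6.29, 6.40 and 5.86 in scrambled arrays. In U937 it read 6.11, 6.19 and 6.69 in CHD4 shRNA arrays, against 6.38, 6.38 and 6.36 in scrambled arrays. Its groups overlapped in both lines, and CHD4 shRNA replicate 2 was the highest MV4-11 array. The change was 0.64 in MV4-11 (SE 0.25, limma adjusted p 0.122) and -0.04 in U937 (SE 0.25, limma adjusted p 0.959). The MV4-11 change was 0.33 without CHD4 shRNA replicate 2, where it was not called, and 0.90 without CHD4 shRNA replicate 3 (limma adjusted p 0.0174). With replicate number as a block in MV4-11 its limma adjusted p was 0.0193.

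**Figure D3:**
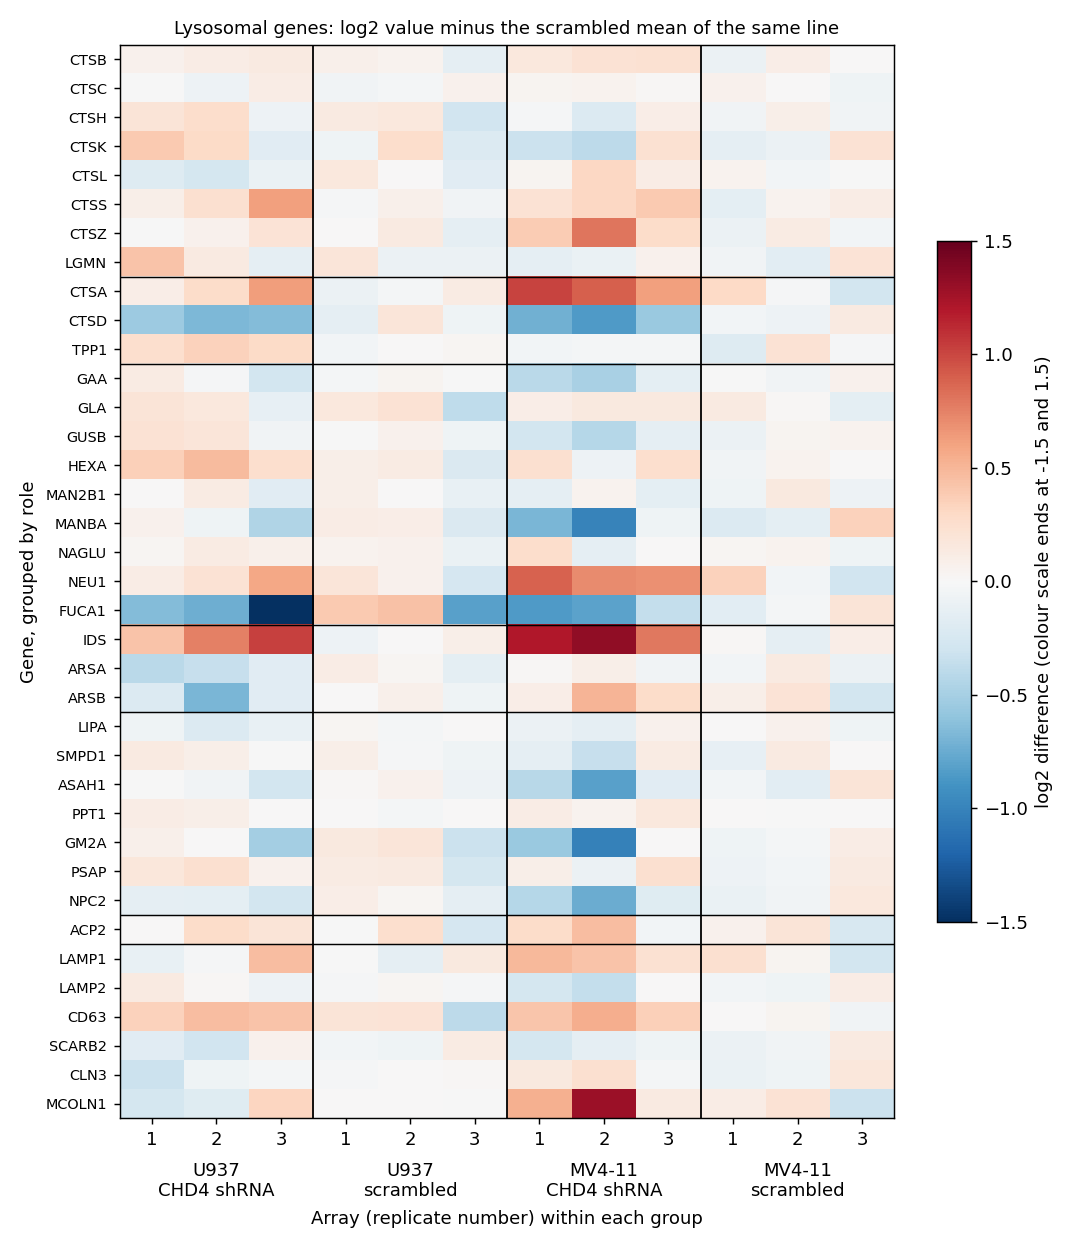
Log2 RMA value of each measured lysosomal gene in each of the 12 arrays, shown as the deviation from the mean of the scrambled arrays of the same line, with genes grouped by role. The rows of IDS and CTSD keep 1 sign over the CHD4 shRNA arrays of both lines. So do other rows, among them CTSA, NEU1, CD63, CTSS and CTSB (above 0) and FUCA1 and NPC2 (below 0). The FUCA1 row shows the low replicate 3 arrays of U937.

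Arrays of the 2 groups did not overlap for 10 of 37 lysosomal genes in U937, or 27.0%, and for 14 of 37 in MV4-11, or 37.8%. Over all genes the share was 26.8% in U937 and 25.6% in MV4-11. Confidence intervals of the changes come from the main fit, without a replicate block. Among genes not passing there, the 95% interval lay within a 2-fold difference for 34 of 35 in U937, with FUCA1 the exception. In MV4-11 it did so for 28 of 32, with MANBA, FUCA1, GM2A and MCOLN1 the exceptions. Most lysosomal genes without a call therefore had intervals that left out a 2-fold change in either direction, while smaller changes were within them.

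Replicate numbers in the titles were taken to pair the MV4-11 arrays, and with replicate number as a block in MV4-11 alone the count was 10 of 37 genes, beside 15.9% of all genes. That is 27.0%, with 5 higher and 5 lower. The block added MANBA (limma adjusted p 0.0223), GAA (0.0454), ASAH1 (0.0102) and NPC2 (0.0128) among lower genes and MCOLN1 (0.0193) among higher ones. With a block within each line the MV4-11 count was 14 of 37, or 37.8%, beside 19.7% of all genes. It further added CD63 (limma adjusted p 0.0368), LAMP1 (0.0264), FUCA1 (0.00412) and GM2A (0.0338).

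The mean change over both lines, which uses all 12 arrays, was past the threshold for 8 of 37 genes, or 21.6%, beside 18.8% of all genes. Higher were 5 of the 37, beside 8.72% of all genes, and lower were 3 of the 37, beside 10.0%. IDS, CTSA, NEU1, CD63 and CTSS rose by 0.92, 0.59, 0.53, 0.42 and 0.31 on the log2 scale, with limma adjusted p of 0.000185, 0.00373, 0.00773, 0.00836 and 0.0304. CTSD, FUCA1 and NPC2 had mean changes of -0.67, -0.82 and -0.32, with limma adjusted p of 0.000139, 0.0188 and 0.0328. The call of CTSS was lost in 5 of 21 alternatives, that of FUCA1 in 2 and that of NPC2 in 9. The count was 5 without U937 scrambled replicate 1, beside 14.4% of all genes, and 13 without MV4-11 CHD4 shRNA replicate 3, beside 22.5%. With the block in MV4-11 alone it was 11 of 37, or 29.7%, beside 24.3%.

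**Figure D4:**
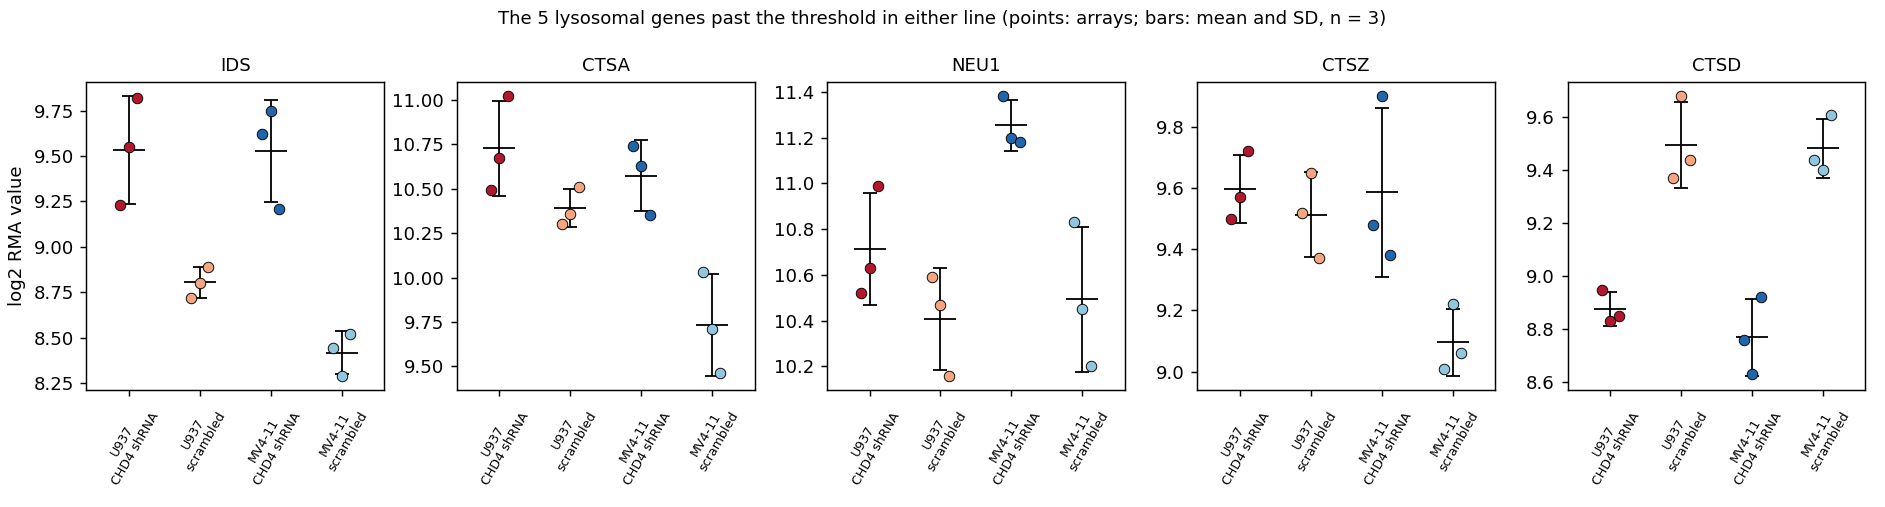
Log2 RMA value in each array of the 5 lysosomal genes past the threshold in at least 1 line, with bars for the mean and SD (n = 3). CHD4 shRNA arrays stand left of scrambled arrays in each line, and for IDS and CTSD the groups are apart in both lines.

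Although 3 genes were past the threshold in MV4-11 alone, no lysosomal gene differed in its CHD4 shRNA change between the lines after adjustment. The limma test of the difference called 0 of 37, as it called 0.0% of all genes, and the lowest adjusted p of the 37 was 0.94. At an unadjusted p under 0.05, 6 of the 37 were found, or 16.2%, beside 4.56% of all genes. The largest differences, MV4-11 minus U937, were 0.69 for MCOLN1 (SE 0.35), 0.65 for ARSB (SE 0.23) and 0.50 for CTSA (SE 0.23). ARSB read 5.85, 6.26 and 6.02 in MV4-11 CHD4 shRNA arrays, against 5.84, 5.95 and 5.47 in MV4-11 scrambled arrays. In U937 it read 5.82, 5.34 and 5.86 in CHD4 shRNA arrays, against 6.03, 6.11 and 5.96 in scrambled arrays. Its U937 groups were apart, its MV4-11 groups overlapped, and neither change passed. The interval of the difference lay within 2-fold for 31 of 37 genes, CTSA, MANBA, FUCA1, ARSB, GM2A and MCOLN1 being the exceptions. The changes had the same sign in both lines for 25 of 37 genes, or 67.6%, beside 66.9% of all genes. Across the 37 genes Pearson's r between the lines' changes was 0.68 and Spearman's rho 0.56, against 0.71 and 0.57 across all genes, which are not independent replicates. The lines have separate control arrays.

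Without CHD4 shRNA, 3 lysosomal genes were lower in MV4-11 than in U937 scrambled arrays and none was higher. That is 8.11% of the 37, beside 5.48% of all genes, of which 2.97% were higher and 2.51% lower. CTSH read 10.30, 10.44 and 10.30 in MV4-11, against 11.24, 11.27 and 10.82 in U937, a difference of -0.76 (SE 0.14, limma adjusted p 0.0055). PPT1 read 12.47, 12.45 and 12.46 in MV4-11, against 12.89, 12.85 and 12.89 in U937, a difference of -0.42 (SE 0.08, limma adjusted p 0.0068). For both genes the lines did not overlap. CTSA, with the array values given above, differed by -0.66 (SE 0.16, limma adjusted p 0.035), and this call was lost in 7 of 20 alternatives, with limma adjusted p of 0.0522 to 0.151. They were a replicate block shared by both lines, the fits without any one U937 scrambled array, without MV4-11 scrambled replicate 2 or 3, and without U937 CHD4 shRNA replicate 2. CTSZ differed by -0.42 without passing (SE 0.13, limma adjusted p 0.095). The largest differences upward did not pass. SMPD1 read 8.08, 8.33 and 8.20 in MV4-11, against 7.95, 7.84 and 7.80 in U937 (0.34, SE 0.12, limma adjusted p 0.12), and its lines did not overlap. The 4 SMPD1 probe sets differed in direction, between -0.31 and 0.34, and none passed. MANBA, CLN3 and CD63 differed by 0.22, 0.17 and 0.14, with limma adjusted p of 0.64, 0.42 and 0.62. CLN3 read 9.13, 9.17 and 9.40 in MV4-11, against 9.04, 9.06 and 9.08 in U937, and MANBA read 9.57, 9.56 and 9.24 in U937.

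In each line alone, between 0 and 3 genes of each list around these enzymes passed the threshold with CHD4 shRNA. The shares below stand beside 6.36% of all genes in U937 and 9.42% in MV4-11. Of 15 measured subunits of the proton pump, none passed in U937 and 1 in MV4-11 (6.67%), where ATP6V1H rose (0.47, SE 0.11, limma adjusted p 0.0214). In each line 13 of the 15 were above 0, with median changes of 0.13 in U937 and 0.23 in MV4-11 against 0.00 and -0.03 over all genes. Of 13 genes that sort enzymes to the lysosome, 1 passed in U937 (7.69%) and none in MV4-11. The adaptor GGA1 rose in U937 (0.54, SE 0.11, limma adjusted p 0.0103). Of 12 genes of the TFEB family and of lysosomal mTORC1 signalling, none passed in U937 and 1 in MV4-11 (8.33%). LAMTOR3, a subunit of the Ragulator scaffold, rose in MV4-11 (0.38, SE 0.11, limma adjusted p 0.047). The changes of TFEB were 0.00 in U937 and 0.02 in MV4-11, and those of TFE3 were 0.10 and 0.04. MITF gave -0.62 and -0.55 without passing (limma adjusted p 0.0626 and 0.0764). In the mean of both lines, beside 18.8% of all genes, 4 of 13 sorting genes passed (30.8%), with GGA1, M6PR and VPS26A higher and GNPTAB lower. So did 3 of 12 regulators (25%), with RRAGB and LAMTOR5 higher and MITF lower, and 2 of 15 pump subunits (13.3%), ATP6V1H and ATP6V0D1, both higher.

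Of 18 other lysosomal proteins measured, the mannosidase MAN2B2 rose in U937 (0.32, SE 0.08, limma adjusted p 0.0394) and in MV4-11 (0.33, SE 0.08, limma adjusted p 0.0286). In MV4-11 the membrane protein LAPTM5 also rose (0.38, SE 0.10, limma adjusted p 0.0314) and the glycoprotein GPNMB fell by 0.93 (SE 0.19, limma adjusted p 0.00994). These calls are 5.56% of the 18 in U937 and 16.7% in MV4-11, beside 6.36% and 9.42% of all genes. The median change of these 18 was 0.04 in U937 and -0.08 in MV4-11. In the mean of both lines 9 of the 18 passed, or 50%, beside 18.8% of all genes. MAN2B2, PLA2G15, HYAL2 and LAPTM5 rose by 0.23 to 0.35, and GPNMB, CTSO, GALC, NPC1 and CTSV had changes between -0.75 and -0.38 (limma adjusted p at most 0.0372). Among 14 autophagy genes none passed in U937 and 2 in MV4-11 (14.3%, beside 9.42% of all genes). The autophagosome proteins MAP1LC3B (0.45, SE 0.10) and GABARAPL2 (0.35, SE 0.09) rose there, with limma adjusted p of 0.0181 and 0.0352. The same 2 genes passed in the mean of both lines, both higher (14.3%, beside 18.8% of all genes). None of 5 cystatins, which inhibit cysteine cathepsins, passed in either line.

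**Figure D5:**
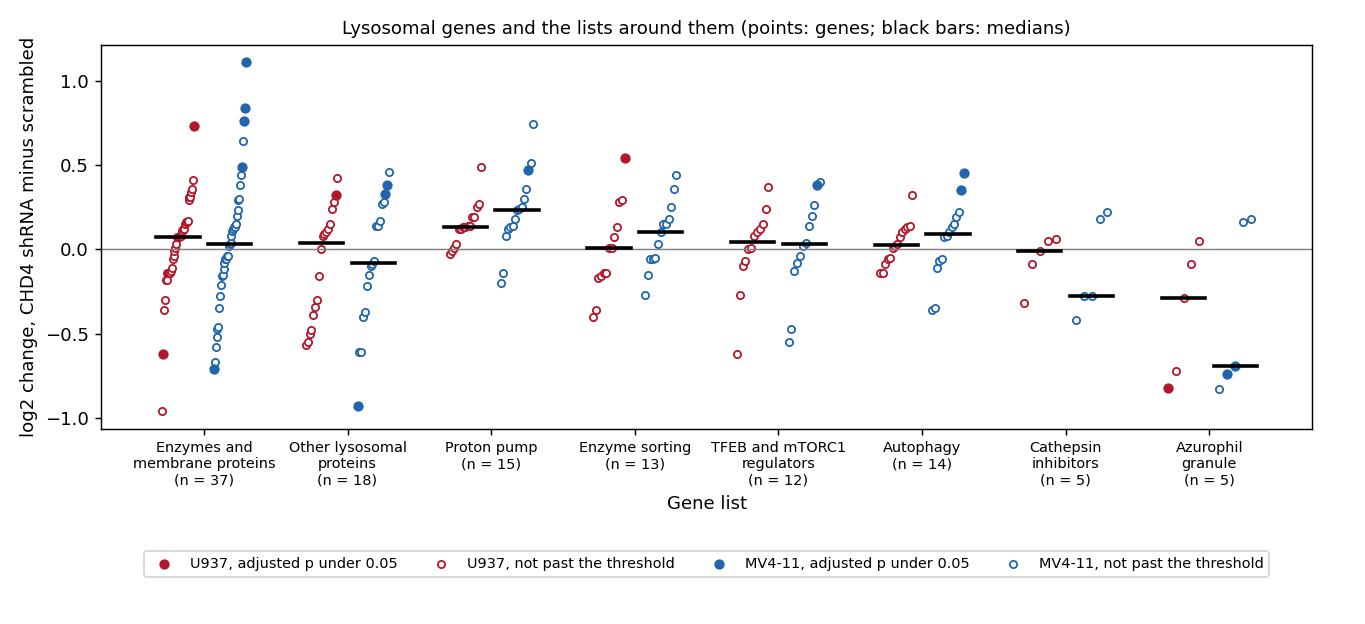
Log2 changes, CHD4 shRNA minus scrambled, of the genes of 8 lists, the lysosomal enzymes and membrane proteins, 6 lists around them and the azurophil granule genes, in U937 and MV4-11, with a bar at the median of the list and filled points for limma adjusted p under 0.05. The medians lie between -0.69 and 0.23. The list with the lowest median, the azurophil granule genes in MV4-11, has 2 of 5 points filled (40%, beside 9.42% of all genes).

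A few monocyte and macrophage markers passed the threshold with CHD4 shRNA, all of them higher. Of 14 measured monocyte and macrophage markers, CD36 (2.48) and ITGAX (0.57) rose in U937, and CD36 (2.30) and ITGAM (1.41) rose in MV4-11, with limma adjusted p between 0.00205 and 0.031. That is 14.3% in each line, beside 6.36% of all genes in U937 and 9.42% in MV4-11, and the other 12 did not pass, CD14 among them (0.11 and 0.06). In the mean of both lines 3 of the 14 passed, ITGAM, CD36 and ITGAX, all higher (21.4%, beside 18.8% of all genes). The mean of the 14 markers lay between 6.96 and 7.14 in U937 CHD4 shRNA arrays, against 6.41 to 6.82 in U937 scrambled arrays. In MV4-11 it lay between 6.71 and 7.16 in CHD4 shRNA arrays, against 6.42 to 6.54 in scrambled arrays. These means include CD36, ITGAX and ITGAM, and 6 of the 14 markers were among the genes the dim filter leaves out. The markers' median deviation from their line's scrambled mean was 0.17, 0.17 and 0.11 in U937 CHD4 shRNA arrays. U937 scrambled arrays gave 0.11, 0.10 and -0.17, so these groups met at 0.11. MV4-11 CHD4 shRNA arrays gave 0.05, 0.27 and 0.13, against 0.02, 0.02 and -0.01 in scrambled arrays. Of 5 azurophil granule genes, whose products are stored in lysosome-related granules, ELANE fell by 0.82 in U937 and by 0.69 in MV4-11, and CTSG fell by 0.74 in MV4-11 (limma adjusted p 0.0149, 0.0257 and 0.0202). That is 20% of the 5 in U937 and 40% in MV4-11, beside 6.36% and 9.42% of all genes. In the mean of both lines 3 of these 5 passed, ELANE, CTSG and AZU1, all lower (60%, beside 18.8% of all genes). Whether the changes of IDS, CTSD, CTSA, NEU1 and CTSZ go with these markers was not tested. Among 4 measured T and NK cell markers CD2 alone passed, at 1.40 in U937 and 1.77 in MV4-11. The medians of these 4 were 0.07 and -0.01. Among 2 measured B cell markers CD79B alone passed, at 0.60 and 1.34, and the other gave 0.05 and -0.25. The limma adjusted p of CD2 and CD79B was at most 0.0346. These calls are 25% and 50% of their lists in each line, beside 6.36% of all genes in U937 and 9.42% in MV4-11. No measured erythroid, fibroblast or epithelial marker passed in either line. In cultures measured in bulk, fewer cells with a transcript and less transcript per cell cannot be told apart.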

How the data were processed

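Total RNA was extracted with Trizol and hybridised as biotinylated cRNA, per the labels' protocols. The authors deposited log2 values, and the submitters' processing notes name RMA with no version. The lowest value was 2.54 and the highest 15.11, and array medians were 6.97 to 7.02. Quantile normalization within RMA hides a change shared by most genes, and background compresses changes of dim genes. The number of arrays limits the precision.

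Of 22277 probe sets, 62 controls were left out, 19064 had 1 gene symbol, 1043 had several and stayed unnamed, and 2108 were unlisted. Each of 11963 genes was read from its probe set with the highest average value. Of the 37 measured lysosomal genes, 15 had several probe sets. One model with 4 groups was fitted to all 12 arrays with limma 3.58.1 in R 4.3.3 (lmFit, eBayes without trend, 8 residual and 4.66 prior degrees of freedom), and every adjusted p given comes from limma. The fit was tested on simulated data. Triplicates were biological per the series description, and p-values measure the spread between these arrays.

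Arrays of the same replicate number deviated together in MV4-11 (correlations over genes of 0.46, 0.48 and 0.49), so the numbers in the titles were taken to pair them. What a number stands for is not stated. In U937 the correlations were 0.00, 0.35 and 0.34, and the numbers were not taken to pair.

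Array values are given for genes past the threshold, for the largest differences between lines, and for others that a result turned on, the last chosen after their values were seen. The lysosomal genes, the other lists and the tests were chosen with earlier results of these data known. Alternatives were a filter on the dimmest 25% of genes, median centring, quantile normalization, trend and robust fitting, array weights, fits of the compared groups alone, blocks by replicate, averaged probe sets, a fit of all probe sets, other thresholds and leaving out each array. The block in MV4-11 alone was added after seeing the data.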

Additional observations from a re-analysis of the deposited data

How the results depend on the processing

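No change of a lysosomal gene reversed its sign while past the threshold. Counts past the threshold in U937 (2 of 37 genes) became 5 with array weights, 5 with a replicate block within each line, 1 at an adjusted p under 0.01 and 4 under 0.1, and 1 to 3 without each array in turn. In U937 the numbers were not shown to pair the arrays. The MV4-11 count (5) became 20 with array weights, 14 with a replicate block within each line, 10 with a replicate block in MV4-11 alone, 3 under 0.01 and 9 under 0.1, and 3 to 12 without each array. The count for the mean of both lines (8) became 17 with array weights, 14 with a replicate block within each line and 5 under 0.01, and 5 to 13 without each array. The count between scrambled lines (3) became 8 with array weights and 5 under 0.1, and 2 to 4 without each array. Calls over all genes moved too. Array weights called 11.7% of all genes in U937, 36.5% in MV4-11, 33.1% in the mean of both lines and 12.5% between scrambled lines. The block within each line called 12.3% in U937, 19.7% in MV4-11 and 27.2% in the mean. The block in MV4-11 alone called 15.9% in MV4-11. Leaving out each array in turn called 2.56% to 7.92% of all genes in U937 and 3.53% to 16.4% in MV4-11. It called 14.1% to 22.5% in the mean and 2.65% to 7.06% between scrambled lines. The difference of changes had 0 calls under every alternative. In U937 the replicate block within each line called CTSA (limma adjusted p 0.0403) and FUCA1 (0.00147). Array weights gave 1 MV4-11 CHD4 shRNA array a weight of 20.1. The cause of these moves was not tested. Of the values for single genes under alternatives, 3782 kept their side of the threshold, 91 gained a call and 39 lost one. The number of arrays limits the precision most for FUCA1, MCOLN1, GM2A and MANBA, whose SEs were 0.30, 0.25, 0.23 and 0.22.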

Other observations

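Array values of 2 genes from the lists around the lysosomal enzymes and membrane proteins follow, chosen after their values were seen. Both were lower with CHD4 shRNA in the mean of both lines. MITF, a transcription factor related to TFEB, read 7.26, 7.17 and 7.44 in U937 CHD4 shRNA arrays, against 7.92, 8.30 and 7.51 in U937 scrambled arrays. In MV4-11 it read 6.87, 6.90 and 7.17 in CHD4 shRNA arrays, against 7.38, 7.40 and 7.80 in scrambled arrays. Groups did not overlap in either line, and MITF fell by 0.58 in the mean of both lines (SE 0.13, limma adjusted p 0.00672). GPNMB, a glycoprotein of lysosomes and melanosomes, read 12.32, 12.08 and 11.98 in U937 CHD4 shRNA arrays, against 12.90, 12.84 and 12.36 in U937 scrambled arrays. In MV4-11 it read 11.35, 11.03 and 11.79 in CHD4 shRNA arrays, against 12.26, 12.19 and 12.50 in scrambled arrays. It fell by 0.75 in the mean of both lines (SE 0.13, limma adjusted p 0.00201), beside 10.0% of all genes called lower in that comparison.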
